A study of Mus musculus with 2 samples.

Results

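Reelin signalling and Cajal-Retzius cells were described here through 10 genes: the ligand Reln, its receptors Vldlr and Lrp8, the intracellular adaptor Dab1, the Cajal-Retzius cell genes Trp73, Calb2, Ebf2 and Ebf3, and the chemokine Cxcl12 with its receptor Cxcr4. They were taken by symbol, and all 10 are among the 55536 genes of the tables. PolyA-plus RNA had been sequenced from whole forebrain of healthy B6NCrl mouse embryos of mixed sex at embryonic day 12.5, in 2 libraries of 10 ng RNA each. The tissue of 120 embryos went into pool 1 and that of 68 into pool 2, and both carry the same donor label. No genotype, treatment or comparison group is given, so levels are reported with their spread over the pools, and differences between the pools are described without a test. Both libraries average many embryos and every cell type of the dissected tissue. In such bulk RNA fewer cells of a type and less RNA per cell cannot be told apart.

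Reelin is a large glycoprotein secreted in the embryonic forebrain mainly by Cajal-Retzius cells, early-born neurons of the marginal zone at the brain surface. It binds the lipoprotein receptors VLDLR and APOER2 (the product of Lrp8) on migrating neurons, where Src-family kinases phosphorylate DAB1. Loss of Reln, of Dab1 or of both receptors inverts the layers of the cortex in mice. Cajal-Retzius cells arise at the borders of the pallium, such as the cortical hem and the septum, and spread below the meninges, whose CXCL12 acts on their receptor CXCR4.

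The dissection and the cell types were checked against fixed marker lists. Pool 1 held 33373843 gene counts and pool 2 held 34406648, so that 3 counts, the limit that a count of 0 allows, came to between 0.0225 and 0.107 TPM for the 10 genes. TPM is a transcript abundance per length, scaled to a fixed total per library. A gene is called detected here at 1 TPM or more in both pools. All 4 forebrain transcription factors were detected, with Lhx2 highest at 153 TPM in pool 1 against 176 TPM in pool 2. None of 4 hindbrain and midbrain genes was detected; En1 was highest at 0.69 TPM in pool 1 against 0.93 TPM in pool 2, and En2 had 0 counts in both. Of 4 markers of sensory ganglia, neurons outside the brain that share some of these genes, 1 was detected, Pou4f1, at 1.74 TPM in pool 1 against 3.74 TPM in pool 2. Whether it came from such ganglia or from cells of the forebrain was not tested. On normalised counts 2 of these 4 were higher in pool 1 and 2 in pool 2. The summed level of the 9 meningeal markers was 644.7 TPM in pool 1 against 783.2 TPM in pool 2, and that of the 6 interneuron markers was 224.3 TPM in pool 1 and 170.0 TPM in pool 2. Progenitor markers summed to 1481 TPM in pool 1 against 1485 TPM in pool 2, neuronal markers to 1318 TPM in pool 1 against 1224 TPM in pool 2, and diencephalic markers to 220.4 TPM in pool 1 against 231.4 TPM in pool 2.

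All 10 genes were detected, against 58.9% of 22028 protein-coding genes and 27.8% of all genes. The same shares are the background for every count of detected genes in the fixed lists. At 0.5 TPM all 10 again passed, against 62.7% of protein-coding genes, and at 5 TPM 9 passed, against 47.4%. Their mean levels ran from 3.83 to 61.9 TPM with a median of 18.5 TPM, against a median of 21.9 TPM over the detected protein-coding genes. The order of mean levels was Dab1, Cxcl12, Lrp8, Calb2, Reln, Ebf2, Vldlr, Cxcr4, Trp73 and Ebf3. No neighbours in that order had overlapping ranges over the pools, although with 2 pools a range is a weak measure of spread. Over coding transcripts alone the order was Dab1, Cxcl12, Calb2, Lrp8, Ebf2, Reln, Cxcr4, Trp73, Vldlr and Ebf3, and the ranges of Reln and Cxcr4 overlapped, as did those of Trp73 and Vldlr. On gene level the closest neighbours were Cxcr4, at 7.45 TPM in pool 1 against 7.90 TPM in pool 2, and Trp73, at 7.03 TPM in pool 1 against 7.13 TPM in pool 2.

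**Figure D1:**
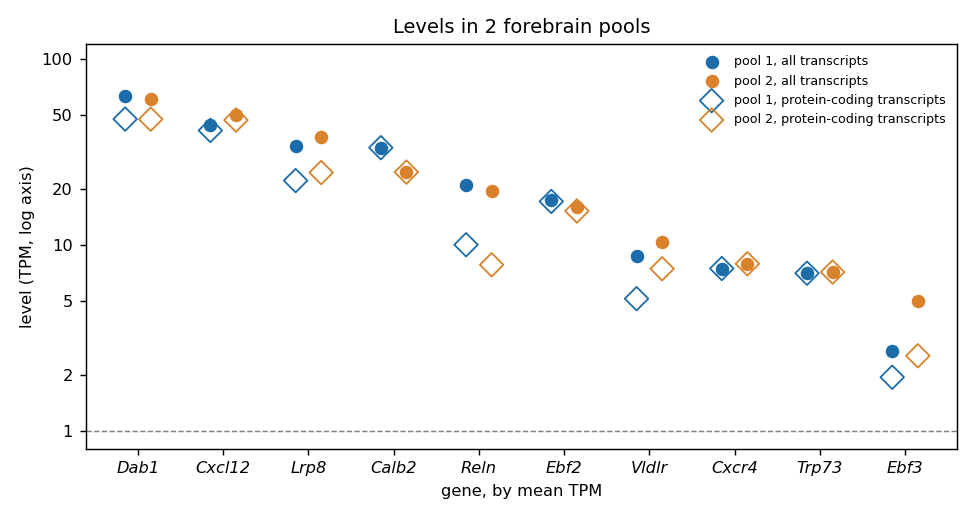
Level of each of the 10 genes in TPM (log axis), from pool 1 (blue) and pool 2 (orange). Filled circles give the level over all transcripts, open diamonds that over protein-coding transcripts, and the dashed line is the detection limit of 1 TPM. Dab1 stood highest at 63.0 TPM in pool 1 against 60.9 TPM in pool 2, Ebf3 lowest at 2.69 TPM in pool 1 against 4.98 TPM in pool 2, and the diamonds of Reln lay at 10.0 TPM in pool 1 against 7.80 TPM in pool 2, below its circles.

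Reln, the ligand, lies on chromosome 5 (21884454 to 22344702, minus strand; this and all other positions are on GRCm38 with GENCODE M21). It had 20.97 TPM in pool 1 and 19.4 TPM in pool 2, a mean of 20.2 ± 1.08 TPM (SD, n = 2), above 69.2% of protein-coding genes. That gene level was higher than the level over its coding transcripts. Protein-coding transcripts held 88.0% of the gene's counts in pool 1 and 83.7% in pool 2. They held only 47.7% of its TPM in pool 1 and 40.1% in pool 2, because TPM divides by length and the coding transcript is 11699 bases long. The remainder sat largely in Reln-205, a non-coding transcript of 891 bases, with 5.98 TPM in pool 1 and 5.96 TPM in pool 2 from 101 and 104 counts. Over coding transcripts alone Reln stood at 10.0 TPM in pool 1 against 7.80 TPM in pool 2.

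Reln has 2 full-length coding transcripts, which differ by an exon of 6 bases near the 3′ end of the coding sequence (chr5:21891562-21891567) and by the length of the last exon. The exon is shown because almost all of the coding level carried it. In the lines here the capitals mark the 6 bases, and the lower-case bases are the 15 on either side.
Reln-207: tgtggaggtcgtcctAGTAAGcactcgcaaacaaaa
Reln-201: tgtggaggtcgtcctcactcgcaaacaaaa
Reln-207, with the exon and 3461 codons, had 9.80 TPM in pool 1 and 7.76 TPM in pool 2. Reln-201, without it and with 3459 codons, had 0.20 TPM in pool 1 and 0.04 TPM in pool 2. The form with the exon thus held 98.0% of the level of these 2 transcripts in pool 1 and 99.5% in pool 2. The split rests on few reads of Reln-201, 45 ± 22 counts in pool 1 and 10 ± 12 in pool 2, where ± is the deposited posterior SD of sharing reads among transcripts. Reads over the longer last exon of Reln-207 also enter it, since 814 of its exon bases are not in Reln-201.

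The receptor Lrp8 stood above the receptor Vldlr. Lrp8 (chromosome 4, 107802261 to 107876840, plus strand), which encodes APOER2, had 33.8 TPM in pool 1 and 37.8 TPM in pool 2, a mean of 35.8 ± 2.82 TPM (SD, n = 2). Vldlr (chromosome 19, 27216484 to 27254231, plus strand) had 8.68 TPM in pool 1 and 10.3 TPM in pool 2, a mean of 9.49 ± 1.15 TPM (SD, n = 2). Lrp8 was therefore 3.90 times Vldlr in pool 1 and 3.67 times in pool 2, and over coding transcripts 4.31 times in pool 1 and 3.29 times in pool 2. In both pools the order of the receptors was the same on either measure.

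An alternative exon of each receptor is shown because it adds a stretch of known role to the protein. The 84-base exon of Vldlr (chr19:27246593-27246676, plus strand) encodes the O-glycosylated stretch outside the membrane. The 177-base exon of Lrp8 (chr4:107870012-107870188, plus strand) encodes an insert of 59 residues in the cytoplasmic tail that binds scaffold proteins of synapses. Each is given whole, 5′ to 3′.
Vldlr exon: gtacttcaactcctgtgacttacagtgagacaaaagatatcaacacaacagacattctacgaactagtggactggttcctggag
Lrp8 exon: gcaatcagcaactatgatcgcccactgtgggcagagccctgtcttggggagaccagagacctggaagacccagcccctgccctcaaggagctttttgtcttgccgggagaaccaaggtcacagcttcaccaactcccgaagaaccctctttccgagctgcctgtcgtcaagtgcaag
Vldlr-207, which has the Vldlr exon, held 32.9% in pool 1 and 33.8% in pool 2 of its level and that of the 3 transcripts that join the neighbouring exons. With Vldlr-204, a retained-intron transcript that also covers these bases, the share was 39.1% in pool 1 and 37.9% in pool 2. Those with the Lrp8 exon held 25% in pool 1 and 28.7% in pool 2. For both receptors, then, the larger share of the assigned level lacked the exon, in both pools.

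These shares lean on how reads of the 3′ ends were assigned. Vldlr-207 alone has the Vldlr exon as such, and 4711 of its exon bases are not in Vldlr-202. It held 28.8% of the gene's TPM in pool 1 and 26.1% in pool 2, but 49.4% of its counts in pool 1 and 50.2% in pool 2. Vldlr-201, annotated as a target of nonsense-mediated decay, held 32.0% of TPM in pool 1 and 22.8% in pool 2, and Vldlr-202 held 23.1% in pool 1 and 18.9% in pool 2. The coding level of Vldlr was 5.13 TPM in pool 1 and 7.43 TPM in pool 2, of which a partial transcript, Vldlr-206, held 0 TPM in pool 1 and 1.80 TPM in pool 2 from 27 counts. For Lrp8, most of the level lay in Lrp8-202, with 61.6% of TPM in pool 1 and 54.9% in pool 2. Its annotated model is incomplete at the 5′ end and carries a long 3′ end, 2955 bases of its exons being absent from the full-length Lrp8-201. Lrp8-201, a full-length coding transcript with the exon, had 1.29 TPM in pool 1 and 3.67 TPM in pool 2, from 122 ± 60 and 362 ± 74 counts (posterior SD). Lrp8-209, a decay-annotated transcript with the exon, held 16.7% of TPM in pool 1 and 12.5% in pool 2. The non-coding Lrp8-212, of 797 bases, held 11.7% of TPM in pool 1 and 19.0% in pool 2.

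Dab1, the adaptor that both receptors signal through, had the highest level of the 10 genes. It lies on chromosome 4 (103619359 to 104744844, plus strand) and had 63.0 TPM in pool 1 and 60.9 TPM in pool 2, a mean of 61.9 ± 1.46 TPM (SD, n = 2), above 87.1% of protein-coding genes. Dab1 was 3.00 times Reln in pool 1 and 3.13 times in pool 2. Over coding transcripts it was 4.74 times Reln in pool 1 and 6.07 times in pool 2. The full-length Dab1-203, of 555 codons, held 63.8% of the gene's counts in pool 1 and 63.4% in pool 2. By TPM it held 31.4% in pool 1 and 30.5% in pool 2, since short transcripts weigh more per count.

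A decay-annotated transcript of Dab1 took the second largest share by TPM. Dab1-207 held 23.4% of TPM in pool 1 and 21.2% in pool 2, from 740 ± 53 and 676 ± 52 counts (posterior SD). It carries an exon of 270 bases (chr4:104704204-104704473) that Dab1-203 lacks, and its coding sequence ends 90 bases into that exon. The partial coding transcripts Dab1-206 and Dab1-208 held 20.5% and 11.9% of TPM in pool 1, and 18.8% and 11.3% in pool 2. Dab1-203 in turn has a 39-base exon that Dab1-207 lacks (chr4:104680070-104680108, plus strand), given here because it sets apart these transcripts.
Dab1 exon: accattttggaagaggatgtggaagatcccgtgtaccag
Dab1-202 and Dab1-203, which have that exon, held 60.8% in pool 1 and 64.8% in pool 2 of their level and that of Dab1-207, which joins its neighbours. Over all transcripts that reach across its place, which adds Dab1-201 and Dab1-208, those covering its bases held 54.8% in pool 1 and 59.4% in pool 2.

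**Figure D2:**
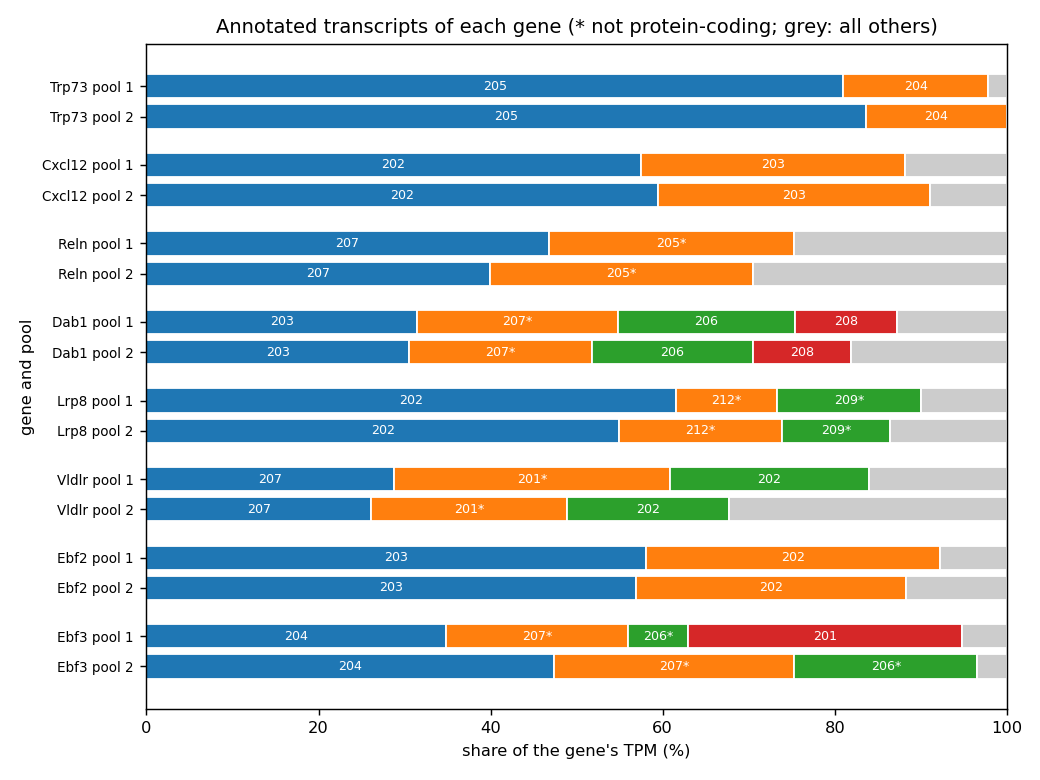
Share of each gene's TPM held by its annotated transcripts (horizontal axis, percent), as stacked bars for 8 genes with pool 1 above pool 2. Numbers in the bars are transcript names, a star marks those that are not protein-coding, grey is the sum of all others, and the colours only separate neighbours. Trp73-205 filled 80.9% of the Trp73 bar in pool 1 and 83.6% in pool 2, while the longest bar of Dab1 filled 31.4%.

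All 16 listed genes of signalling at and below DAB1, among them the kinases Fyn and Src, were detected, with a median of 54.1 TPM. Cfl1, the actin-severing protein cofilin that reelin signalling holds in its phosphorylated form, was highest at 2493 TPM in pool 1 against 2481 TPM in pool 2. Pik3ca, a catalytic subunit of phosphoinositide 3-kinase, was lowest at 12.1 TPM in pool 1 against 10.1 TPM in pool 2. Akt1, a kinase fed by that lipid kinase, was the single member of the 16 over 1.5-fold apart. It had 36.6 TPM in pool 1 against 56.1 TPM in pool 2. Of protein-coding genes averaging 10 counts or more, 6.79% were as far apart. That share includes genes with far fewer counts than Akt1, which had 1836 in pool 1 and 3006 in pool 2. Of the 12961 detected protein-coding genes compared, this fold was passed by 97 towards pool 1 and by 224 towards pool 2. Whether 1 of 16 differs from genes at large was not tested. The genes that remove phosphorylated DAB1 were present too, with the ubiquitin ligase parts Rnf7 at 186 TPM in pool 1 against 181 TPM in pool 2 and Socs7 at 6.16 TPM in pool 1 against 6.28 TPM in pool 2. All 5 listed proteases that cleave reelin, or have been reported to, were detected with a median of 3.71 TPM. Of these Plat, tissue plasminogen activator, was highest at 34.4 TPM in pool 1 against 34.1 TPM in pool 2, and Adamts5 was lowest at 1.06 TPM in pool 1 against 1.10 TPM in pool 2.

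Relatives and other partners of the receptors were measured on the same scale. All 7 listed receptors of the family outside Vldlr and Lrp8 were detected, from Lrp1 at 63.5 TPM in pool 1 against 64.02 TPM in pool 2 to Lrp2 at 1.14 TPM in pool 1 against 1.38 TPM in pool 2. Among 6 other ligands and regulators, Snx17, which recycles receptors to the surface, was highest at 108 TPM in pool 1 against 110 TPM in pool 2. All 6 were lower in pool 1 than in pool 2, as were 9649 of the 19063 genes compared on normalised counts. The median log2 ratio of the 6 was -0.25 (pool 1 over pool 2), and none was over 1.5-fold apart. Intervals for counting error ran from negative to positive for Snx17 (-0.11 to 0.01) and Clu (-0.37 to 0.02). They were wholly negative for the rest.

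Trp73, which encodes the transcription factor p73, is made by Cajal-Retzius cells and is needed for their survival. It lies on chromosome 4 (154056253 to 154140208, minus strand) and had 7.03 TPM in pool 1 and 7.13 TPM in pool 2, a mean of 7.08 ± 0.0707 TPM (SD, n = 2). Classes of p73 are known from different start sites: a full form with the transactivation domain and a shorter one, ΔNp73, from an internal start. Trp73-205, which begins at the internal start and has 590 codons, had 5.69 TPM in pool 1 against 5.96 TPM in pool 2, or 80.9% of the gene in pool 1 and 83.6% in pool 2. Trp73-204, from the distal start and with 638 codons, had 1.19 TPM in pool 1 against 1.17 TPM in pool 2, or 17.0% in pool 1 and 16.4% in pool 2. The transcript from the internal start was thus the larger in both pools, by 562 ± 38 against 125 ± 40 counts in pool 1 and by 613 ± 32 against 128 ± 33 counts in pool 2 (posterior SD).

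The bases that tell these transcripts apart are 280 for Trp73-205 and 570 for Trp73-204. All 280 also lie within exons of the antisense gene Trp73os, which had 0.29 TPM in pool 1 and 0.38 TPM in pool 2, from 13 and 18 counts. Whether reads were assigned by strand is not given, so reads of the antisense gene could not be told from those of Trp73-205 there. The promoter of the internal start is shown because most of the level was assigned to the transcript that begins there. It runs 250 bases before to 50 bases from the RefSeq start (GRCm38.p6, chr4:154097124-154097423, minus strand), and the capital letter is the start base.
Trp73 internal start: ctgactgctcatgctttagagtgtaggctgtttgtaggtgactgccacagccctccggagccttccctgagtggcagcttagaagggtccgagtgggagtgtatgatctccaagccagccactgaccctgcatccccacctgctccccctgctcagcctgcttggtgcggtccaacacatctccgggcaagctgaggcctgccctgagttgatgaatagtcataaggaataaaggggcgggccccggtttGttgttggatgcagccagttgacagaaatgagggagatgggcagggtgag
This promoter held 6 CG dinucleotides, a number reached by 56.4% of the 32851 RefSeq promoters of this length, whose median was 7, and 57.7% of it was G or C. The letters TATAAA were not found in it on either strand, against 13.6% of all these promoters that hold them.

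Calb2, the calcium-binding protein calretinin, which marks Cajal-Retzius cells and also other early neurons, differed more between the pools than most genes. It lies on chromosome 8 (110137502 to 110168210, minus strand) and had 33.3 TPM in pool 1 and 24.6 TPM in pool 2, a mean of 28.9 ± 6.14 TPM (SD, n = 2). Its normalised count was 1.37-fold higher in pool 1, a log2 ratio of 0.46 (95% counting interval 0.31 to 0.60). Over the 19063 genes averaging 10 counts or more, the central log2 ratios from the 5th to the 95th percentile ran from -0.77 to 0.45. On normalised counts 5 of the 6 interneuron markers were also higher in pool 1 (median log2 ratio 0.31), as were 9414 of those 19063 genes. Dlx2 stood at 104 TPM in pool 1 against 67.2 TPM in pool 2. Lhx6 stood at 26.7 TPM in pool 1 against 17.2 TPM in pool 2. Erbb4 was higher by a log2 ratio of only 0.02. On TPM it was lower in pool 1, at 6.18 TPM against 6.76 TPM in pool 2. Maf was lower in pool 1 on counts, with a log2 ratio of -0.28. The part of these markers in the difference of Calb2 was not tested. Calb2-201 held 98.3% of the TPM in pool 1 and 97.6% in pool 2.

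Ebf2 and Ebf3 encode related transcription factors of early-born neurons. Ebf2 (chromosome 14, 67233292 to 67430918, plus strand) had 17.5 TPM in pool 1 and 16.02 TPM in pool 2, a mean of 16.8 ± 1.04 TPM (SD, n = 2). Its 3 coding transcripts have the same 575 codons, and Ebf2-203 held 58.1% of TPM in pool 1 and 56.9% in pool 2, with Ebf2-202 at 34.1% in pool 1 and 31.4% in pool 2. Ebf3 (chromosome 7, 137193673 to 137314445, minus strand) had 2.69 TPM in pool 1 and 4.98 TPM in pool 2, a mean of 3.83 ± 1.62 TPM (SD, n = 2). Ebf2 was the higher of the pair in both pools, by 6.5 times in pool 1 and 3.22 times in pool 2. Over coding transcripts the ratio was 8.81 in pool 1 and 6.0 in pool 2, and with the older annotation release, GENCODE M4, it was 9.41 in pool 1 and 6.14 in pool 2.

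Ebf3 was the 1 gene of the 10 over 1.5-fold apart between the pools. Of all genes averaging 10 counts or more, 11.2% were as far apart, 3.26% being higher in pool 1 and 7.96% higher in pool 2. The share was 6.79% over protein-coding genes, and 3.22% over those of them with mean counts of 200 to 400. It had 240 counts in pool 1 and 400 in pool 2, and its normalised count was 1.58-fold higher in pool 2, a log2 ratio of -0.66 (95% counting interval -0.90 to -0.43). The log2 ratio was -0.82 with spike-in scaling and -0.89 on gene TPM, but -0.49 on counts of the older annotation. The ratio of TPM over coding transcripts, at 1.94 TPM in pool 1 against 2.53 TPM in pool 2, was -0.38, so that neither of these last ratios passed 1.5-fold. With the older annotation the level itself was 1.95 TPM in pool 1 against 2.74 TPM in pool 2.

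The transcripts of Ebf3 show where the difference between the annotations lay. Ebf3-207, a retained intron of a single exon that the older tables do not list, had 47 counts in pool 1 and 120 in pool 2, with 0.57 TPM in pool 1 and 1.39 TPM in pool 2. Ebf3-206, a non-coding transcript also absent there, had 0.19 TPM in pool 1 and 1.06 TPM in pool 2 from 3 and 15 counts. Among the coding transcripts, Ebf3-204 had 0.94 TPM in pool 1 and 2.36 TPM in pool 2, while Ebf3-201 had 0.86 TPM in pool 1 and was listed at 0 in pool 2. These 2 are separated by 156 exon bases, and the assignment between them was loose: Ebf3-204 had 98 ± 42 counts in pool 1 and 256 ± 46 in pool 2, and Ebf3-201 had 86 ± 43 in pool 1 and 0 ± 46 in pool 2 (posterior SD). In the older tables the order turned, with Ebf3-204 listed at 0 in both pools and Ebf3-201 at 1.60 TPM in pool 1 against 1.54 TPM in pool 2. A further coding transcript, Ebf3-202, had 0.35 TPM in pool 1 against 1.21 TPM in pool 2 there, and 0 in both pools with M21.

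Cxcl12, the chemokine made by meninges and by some neural progenitors, was the second highest of the 10 genes. It lies on chromosome 6 (117168535 to 117181367, plus strand) and had 44.0 TPM in pool 1 and 49.7 TPM in pool 2, a mean of 46.8 ± 4.02 TPM (SD, n = 2). Its 3 coding transcripts share 267 coding bases and then differ at the end, which is why their ends are shown. Each line starts with the last 30 shared bases, and capitals mark the coding bases after them, without the stop codon.
Cxcl12-202: caagagtacctggagaaagctttaaacaag
Cxcl12-203: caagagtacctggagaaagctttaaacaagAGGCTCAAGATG
Cxcl12-201: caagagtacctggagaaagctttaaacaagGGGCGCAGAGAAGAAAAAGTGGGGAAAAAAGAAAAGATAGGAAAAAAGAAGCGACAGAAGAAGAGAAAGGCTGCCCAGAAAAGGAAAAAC
These are the alpha form of 89 codons, the beta form of 93 codons and the gamma form of 119 codons, whose added end is rich in basic residues that bind heparan sulfate.

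The alpha form was highest and the gamma form lowest in both pools. Cxcl12-202 had 25.3 TPM in pool 1 against 29.5 TPM in pool 2, or 57.4% of the gene in pool 1 and 59.5% in pool 2. Cxcl12-203 had 13.5 TPM in pool 1 against 15.7 TPM in pool 2, or 30.8% in pool 1 and 31.6% in pool 2. Cxcl12-201 had 2.36 TPM in pool 1 against 1.59 TPM in pool 2, or 5.37% in pool 1 and 3.19% in pool 2. Of these 3 transcripts the gamma form alone was higher in pool 1, with 277 ± 16 counts in pool 1 and 194 ± 13 counts in pool 2 (posterior SD), while the alpha form had 954 ± 21 counts in pool 1 and 1162 ± 21 in pool 2. As each pool is 1 library, that contrast has no replicate check. On normalised counts 8 of the 9 meningeal markers were lower in pool 1 by sign, and 7 by at least 0.01 on the log2 scale. By sign, 9649 of the 19063 genes compared were also lower in pool 1. Among the markers, the transcription factors Foxc1 and Foxd1 were over 1.5-fold apart, both with more in pool 2. Of the 19063 genes compared, 7.96% passed that fold in the same direction. Of the 12961 detected protein-coding genes compared, 224 did so. Foxc1 stood at 2.11 TPM in pool 1 against 3.93 TPM in pool 2. Foxd1 stood at 2.02 TPM in pool 1 against 3.28 TPM in pool 2. The part of these markers in the level of Cxcl12 was not tested.

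Cxcr4 (chromosome 1, 128588199 to 128592293, minus strand), the receptor by which Cajal-Retzius cells respond to CXCL12, was lower than its ligand. It had 7.45 TPM in pool 1 and 7.90 TPM in pool 2, a mean of 7.67 ± 0.318 TPM (SD, n = 2), and Cxcl12 was 5.90 times Cxcr4 in pool 1 and 6.28 times in pool 2. Cxcr4-201 held 100% of it in pool 1 and 84.7% in pool 2, the rest being a partial coding transcript with 21 counts in pool 2. The 6 markers of endothelium, another cell type that makes Cxcr4, summed to 89.95 TPM in pool 1 against 89.1 TPM in pool 2. Ackr3, another CXCL12 receptor that takes up the chemokine, stood above Cxcr4 by 3.00 times in pool 1 and 2.53 times in pool 2. The 6 listed partners of these receptors were all detected, from the G protein Gnai2 at 458 TPM in pool 1 against 446 TPM in pool 2 to the arrestin Arrb1 at 9.53 TPM in pool 1 against 8.42 TPM in pool 2.

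On normalised gene counts the other 8 genes were closer between the pools than Calb2 and Ebf3. Reln had a log2 ratio of 0.30 on normalised counts (95% counting interval 0.22 to 0.38, from 2792 counts in pool 1 and 2389 in pool 2) but 0.11 on TPM. A difference of at least 25% was seen for 2 of the 10, Calb2 and Ebf3, against 23.5% of all genes averaging 10 counts or more. For the other 7 genes the log2 ratios ran from -0.11 for Cxcl12 to 0.15 for Ebf2. The intervals of Vldlr, Trp73 and Cxcr4 included 0, that of Lrp8 ended at 0.00, and those of Dab1, Ebf2 and Cxcl12 did not include it. Over coding transcripts, however, the TPM ratio of Vldlr was -0.53, further from 0 than those of Calb2, at 0.44, and Ebf3, at -0.38, on that measure. The median over the 10 genes was 0.01, with 5 higher in each pool, against a median of 0.00 over all genes. Scaled to the spike-in RNAs instead, the median of all genes was -0.17 and that of the 10 genes -0.15, with 2 of the 10, Reln and Calb2, higher in pool 1 and 8 higher in pool 2. All these intervals allow for counting error alone; without molecular identifiers, copies made by PCR could not be removed from the counts.

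**Figure D3:**
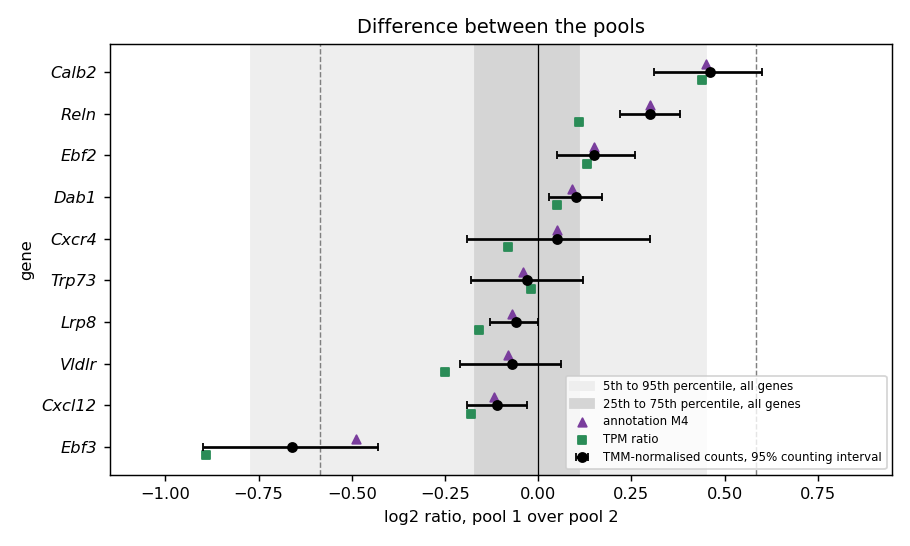
Log2 ratio of normalised counts, pool 1 over pool 2, for each of the 10 genes, with bars for the 95% counting interval. Triangles give the ratio with the older annotation and squares the ratio of TPM; the light band runs from the 5th to the 95th percentile of all genes (-0.77 to 0.45), the dark band from the 25th to the 75th, and dashed lines stand at 1.5-fold. Ebf3 at -0.66 was the 1 gene past 1.5-fold, and Calb2 at 0.46 lay at the upper edge of the band.

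The other Cajal-Retzius genes of the fixed list were detected in full, 8 of 8, with a median of 9.20 TPM and a median log2 ratio of 0.12. Nhlh2, a helix-loop-helix factor, was highest at 44.0 TPM in pool 1 against 46.6 TPM in pool 2, and Car10, a carbonic anhydrase-related protein, was lowest at 1.84 TPM in pool 1 against 1.62 TPM in pool 2. None of the 8 was over 1.5-fold apart. Several of these genes, such as the T-box factor Tbr1, are also made by other early neurons, as are Reln and Calb2, so their levels do not count Cajal-Retzius cells. Of 6 genes of the regions where these cells arise, 5 were detected, against 58.9% of protein-coding genes. Dbx1, of the septum and ventral pallium, had the highest mean, at 27.6 TPM in pool 1 against 22.4 TPM in pool 2. Wnt8b, a hem gene, stood below it in pool 1 at 19.01 TPM and above it in pool 2 at 28.8 TPM. Both libraries are of whole forebrain and held diencephalic markers, so the levels of these genes cannot be assigned to those regions. Wnt2b, a hem gene, did not reach detection at 0.66 TPM in pool 1 against 1.21 TPM in pool 2 and was over 1.5-fold apart, on 42 counts in pool 1 and 81 in pool 2. On normalised counts 4 of the 6 were lower in pool 1 and 2 higher. Of the 19063 genes compared, 9649 were lower in pool 1. Wnt3a and Wnt8b had log2 ratios of -0.47 each and Rspo2 of -0.29, while Lmx1a had 0.14 and Dbx1 0.32.

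Paralogs of these genes were measured as well, and 5 of 7 were detected. Trp53, the p53 gene, had 96.4 TPM in pool 1 and 94.3 TPM in pool 2, while Trp63, the p63 gene, averaged 1.075 ± 0.247 TPM (SD, n = 2) and was not called detected, with 0.90 TPM in pool 1. Trp73 thus lay between its relatives in both pools. Of the calcium-binding relatives of Calb2, Calb1 had 11.5 TPM in pool 1 against 12.3 TPM in pool 2, and Pvalb, parvalbumin, had 1 count in each pool. Ebf1 stood above Ebf2 at 21.2 TPM in pool 1 against 21.01 TPM in pool 2, and Ebf4 stood below Ebf3 at 2.30 TPM in pool 1 against 2.12 TPM in pool 2.

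**Figure D4:**
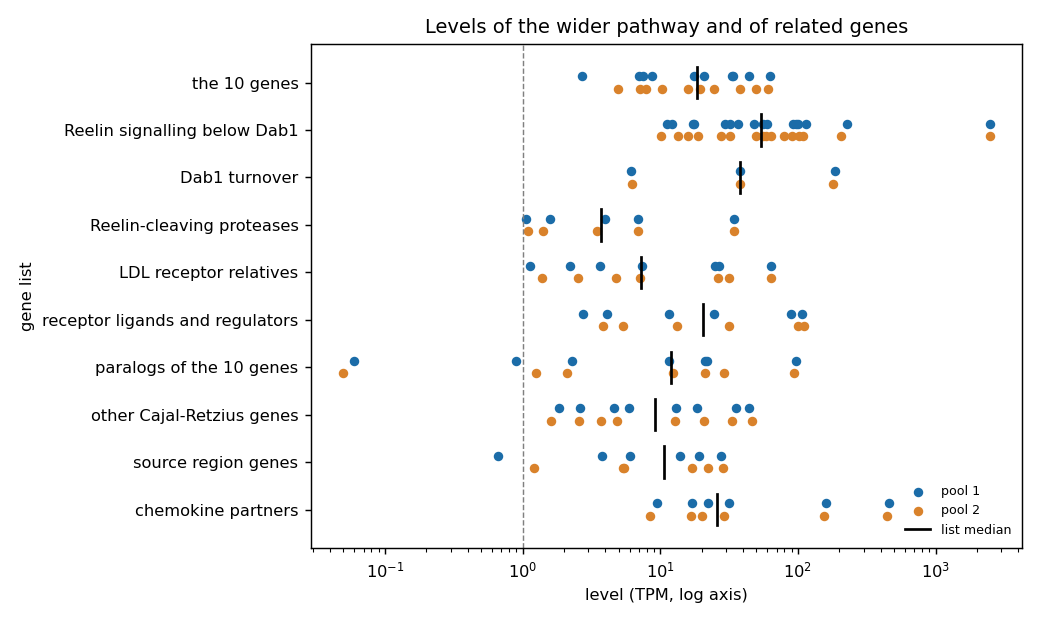
Level in TPM (log axis) of every gene of the pathway and related lists, in pool 1 (blue) and pool 2 (orange), with a bar at the median of each list and a dashed line at 1 TPM. The list labelled as signalling below Dab1, which also holds the kinases Fyn and Src, had a median of 54.1 TPM. The reelin-cleaving proteases had a median of 3.71 TPM and the 10 genes 18.5 TPM.

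Genes that overlap the 10 were checked, since strand use in counting is not given. The annotation places 20 other genes within or across 6 of them, and none across Vldlr, Calb2, Cxcr4 and Cxcl12. Of these 20, 4 share exon bases: Gm10475 shares 246 with Reln, Trp73os 280 with Trp73, Gm10860 424 with Ebf2, and Gm45278 355 with Ebf3. None of these 4 was detected, the highest having 18 counts. The 1 detected gene was Lrp8os2, antisense to Lrp8, at 1.62 TPM in pool 1 against 1.76 TPM in pool 2, and it shares no exon base with Lrp8.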

How the data were processed

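PolyA-plus RNA of 2 forebrain pools was measured. Per the labels' protocols, RNA was extracted with mirVana, amplified with a SMARTer low-input kit and tagmented with Nextera, with ERCC spike-ins added. The authors deposited gene and transcript tables on mm10 with GENCODE M21 (used here) and M4 (the alternative). The aligner, the quantifier and any use of strand were not given in the sources used here. The deposited expected counts are unnormalised estimates that split ambiguous reads among transcripts. The deposited TPM values are scaled to 1000000 per library, the deposited FPKM values are per length and depth and served only for an alternative detection count, and the deposited isoform percent is a transcript's share of the gene's TPM. The deposited posterior mean TPM and posterior SD of counts were treated as a score.

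All 55536 gene identifiers matched GENCODE M21. Entries that name no gene held 5.74e-05% of counts in pool 1 and 9e-05% in pool 2 and were left out. Rounded expected counts were normalised with edgeR 4.0.16 (TMM, prior count 1, mean count of at least 10) in R 4.3.3. DESeq2 1.42.0 size factors, spike-in totals, TPM ratios, a prior count of 5, no filter and other detection levels were alternatives. The ratio step was checked on simulated data. Python 3.11.15, numpy 2.4.6, scipy 1.17.1, pandas 2.3.3 and matplotlib 3.10.9 were also used. Counting intervals are exact binomial at 95%. The labels call the pools biological replicates; whether their tissue was collected separately is not stated, so the SD may be partly technical.

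Exon shares set transcripts with that exon against those that join its neighbours; a share over all transcripts across its place was added after the data were seen. Exon sequences were read from GRCm38 and promoters from RefSeq, which held 8 of the 10 genes (not Calb2 and Ebf2). The 10 genes and the 18 lists were chosen with earlier results of these data known. Of a list, the highest and lowest genes and those that were not detected or over 1.5-fold apart were named, as were transcripts with at least 10% of a gene's mean TPM. Values of Ackr3, Calb1, Ebf1, Ebf4, Lmx1a, Rspo2, Wnt3a, Wnt8b and the transcript Vldlr-206 were added after they were seen. Values of 1 further gene that this rule would name are not reported here.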

Additional observations from a re-analysis of the deposited data

How the results depend on the processing

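Of the 10 genes, 1 was over 1.5-fold apart between the pools, and the count stayed at 1 with DESeq2 size factors, TPM ratios, spike-in scaling, a prior count of 5 and no filter. It was 0 with the older annotation, 2 at a 25% difference, 0 at a fold of 2, and 0 on TPM of protein-coding transcripts, a setting chosen after seeing the data. For Ebf3 the transcripts missing from the older release enter this change. All 10 genes were detected at 0.5 TPM and at 1 TPM, 10 without replicate 1 and 10 without replicate 2, and 9 at 5 TPM; the older annotation, the posterior mean and FPKM also gave 10. Spike-in scaling moved 8 of 10 log2 ratios by more than their counting interval allows, and the older annotation moved 3 of 10 levels and 3 of 10 leading transcript shares by more than 1 SD over the pools. That yardstick is wide where the pools differ: the mean level of Ebf3, 3.83 TPM, was 2.345 TPM with the older annotation, within its SD of 1.62. No paired analysis was possible because there is 1 group. With 2 pools of 1 library each, differences between the pools have no replicate check, and transcript shares depend on how shared reads were assigned.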
